A study of Mus musculus with 55 samples.

Results

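The mRNA levels of 7 genes of cholesterol synthesis were followed through all conditions of a mouse liver study: Srebf2, Hmgcs1, Idi1, Fdps, Sqle, Lss and Cyp51. They were taken by symbol, with no threshold on a measured value, and all 7 were found among the 34490 gene symbols that both sequencing batches share. Cholesterol is built from acetyl-CoA through mevalonate, the isoprenoid diphosphates and squalene, and the first sterol ring is then trimmed to cholesterol. The liver is a main site of this synthesis, and its genes are switched on together by SREBP2, a transcription factor that is held in the endoplasmic reticulum by SCAP and INSIG proteins while sterols are plentiful and is cut loose when sterols fall. Among the 7 genes, Srebf2 encodes that factor and the other 6 encode enzymes. None of them encodes a protein of LDL uptake, and the genes of uptake and trafficking are given below only as a separate list.

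The livers came from adult C57BL/6 mice that lost the RING exons of Rnf43 and Znrf3, a pair of ubiquitin ligases that remove WNT receptors from the cell surface (R&Zdel, labelled as mutant), or that kept the floxed alleles (R&Zflox, labelled wild type). Undamaged livers were taken 1, 3 and 7 months after deletion (1M, 3M and 7M). Other mice recovered for 4, 50 or 170 days from repeated doses of CCl4, a toxin of pericentral hepatocytes (chronic damage, CD), or for 7 or 21 days from partial hepatectomy (PHx). Deletion was by a hepatotropic AAV8-TBG-Cre virus in the 1M and PHx mice and in the 3M mice of batch 2, with null virus in controls, and by tamoxifen in AlbCre-ERT2 mice at 7M, after CD and throughout batch 1, with oil in controls. One passage of the methods gives the control littermates of the damage experiment oil only, whereas the labels mark damage in both genotypes. The labels were followed here. Whole liver was sequenced, so fewer cells of a type and less RNA per cell cannot be told apart.

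Of 53 libraries with counts, 48 could be given a group, 18 of them in batch 1 and 30 in batch 2. All CD libraries are of batch 1, with 2 libraries of each genotype at 4 and 170 days and with 2 R&Zdel and 1 R&Zflox at 50 days. The 1M and PHx libraries are of batch 2, with 4 and 3 per genotype and time. At 3M there were 2 R&Zdel and 5 R&Zflox libraries and at 7M 5 of each, split over the batches. Total counts ran from 11721687 to 38692089 per library. Whole-gene counts of Rnf43 and Znrf3 were not lower in R&Zdel livers: Znrf3 lay between 39.3 and 103.9 CPM (read counts scaled to the library total) in the R&Zdel and between 9.29 and 30.4 CPM in the R&Zflox livers at 1M, and such counts do not show which exons were read. The titles of 2 libraries, R&Zdel 3M replicate 4 and R&Zflox 7M replicate 5, both of batch 1 and both female, conflict with their other labels. They were placed by the other labels, and several of the results that rest on them are given with and without them. The nominal replicates are separate livers by their labels, with no more said of litter or day.

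The 7 genes differed widely in level. In the 4 undamaged R&Zflox livers of batch 1, per kilobase of exon, Fdps had the highest level, at 219 ± 99.2 CPM per kb (SD, n = 4). Hmgcs1 followed at 62.7 ± 21.8, Cyp51 at 45.2 ± 10.2 and Sqle at 39.3 ± 10.5 CPM per kb, and these 3 overlapped one another. Lss stood at 9.33 ± 3.72, Srebf2 at 5.46 ± 0.751 and Idi1 at 0.676 ± 0.204 CPM per kb. Lss and Srebf2 overlapped, while Idi1 was below all others in every one of the 4 livers. Idi1 rested on few reads, with as few as 1 and at most 124 counts in a library that has a group, so its fold changes carry wide errors. The level of Fdps was 10.4 times higher in batch 1 than in batch 2, at 423 against 40.6 CPM, while for the other 6 genes this ratio lay between 0.714 and 1.33. Levels are therefore compared only within a batch, and fits over both batches carry a batch term.

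The start regions of 5 of the 7 genes could be read from RefSeq on the mouse build GRCm38.p6. They are shown because genes under SREBP2 commonly pair a sterol element with an NF-Y box, and because several of these genes moved together below. The windows are of equal length, lie mostly before the start of each gene, and were searched on both strands for CCAAT, the NF-Y box (read as ATTGG on the other strand), and for TCACNCCAC, a sterol element. The runs below are the part of each window before the start, written in the direction of the gene, from 10 bases before the first match, with the matches in capitals. Srebf2 is at chr15:82147124-82147268 (+ strand), Hmgcs1 at chr13:119690104-119690350 (+), Idi1 at chr13:8885551-8885605 (+), Lss at chr10:76531533-76531564 (+) and Cyp51 at chr5:4104698-4104736 (-).
Srebf2: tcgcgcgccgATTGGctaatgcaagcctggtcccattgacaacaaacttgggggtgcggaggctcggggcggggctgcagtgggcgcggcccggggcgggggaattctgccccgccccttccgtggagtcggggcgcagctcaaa
Hmgcs1: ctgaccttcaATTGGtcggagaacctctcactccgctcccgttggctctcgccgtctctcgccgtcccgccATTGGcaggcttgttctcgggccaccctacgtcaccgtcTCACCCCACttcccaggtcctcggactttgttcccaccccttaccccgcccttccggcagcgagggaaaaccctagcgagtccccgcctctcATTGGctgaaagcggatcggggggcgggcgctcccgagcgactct
Idi1: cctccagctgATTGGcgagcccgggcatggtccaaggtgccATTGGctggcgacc
Lss: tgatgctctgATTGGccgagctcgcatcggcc
Cyp51: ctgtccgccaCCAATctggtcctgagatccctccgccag
A CCAAT box was found in 5 of these 5 windows, against 37.9% of 27025 windows taken 1 per gene symbol. TCACNCCAC was found in Hmgcs1 alone, 137 bases before the start, against 1.22% of all those windows. Of the other genes of the pathway, 4 of 5 readable mevalonate and squalene enzymes and 7 of 8 readable post-squalene enzymes held CCAAT. So did 3 of 8 readable genes of SREBP processing, or 37.5%, and 4 of 6 of uptake and trafficking. None of the genes of these lists held TCACNCCAC. A match describes the letters of the window only.

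In undamaged livers, the 7 genes were on balance somewhat higher in R&Zdel mice, and none passed the threshold. A gene is called changed below when its Benjamini-Hochberg adjusted p in edgeR's quasi-likelihood test is under 0.1 and its log2 fold change is above 1 in either direction. Averaged over 1M, 3M and 7M, all 7 genes had a positive log2 fold change of R&Zdel over R&Zflox, with a median of 0.33 against -0.03 over all 12848 genes tested. Leaving out 1 library gave medians of 0.19, without R&Zdel 7M replicate 4, to 0.59, without the R&Zdel 3M liver of batch 2, and the fit with the replicate number as a block gave 0.18. None of the 7 was called, where 1.2% of all genes were. DESeq2's Wald test and edgeR's likelihood ratio test also called 0. At an unadjusted p under 0.05, 3 of the 7 passed, where 12.3% of all genes did. Lss, whose product closes squalene epoxide into lanosterol, had a log2 fold change of 0.55 ± 0.18 (SE, edgeR adjusted p = 0.16). For Fdps, which makes farnesyl diphosphate, it was 0.54 ± 0.19 (edgeR adjusted p = 0.21), and for Cyp51, which takes a methyl group off lanosterol, 0.51 ± 0.18 (edgeR adjusted p = 0.186). By a looser rule, which asked for an unadjusted p under 0.05 and a log2 change of over 0.4, these 3 of 7 were higher, against 6.06% of all genes. In male mice alone the log2 fold change was 0.20 for Lss and 0.27 for Fdps, and 0.42 for Cyp51, and without both libraries with conflicting labels it was 0.38, 0.44 and 0.43.

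The time points differed in size but not by the test of the difference. At 1M the genotypes overlapped in level. Hmgcs1, the enzyme that makes HMG-CoA, lay at 467, 486, 505 and 522 CPM in the R&Zdel and at 399, 580, 599 and 676 CPM in the R&Zflox livers, with a log2 fold change of -0.17 ± 0.31. The medians of the 7 log2 fold changes were 0.09 at 1M, 0.57 at 3M and 0.38 at 7M. Each moved with single livers: leaving out 1 library gave -0.03 to 0.23 at 1M and 0.44 to 1.09 at 3M, the highest without the R&Zdel liver of batch 2, and the 7M median was 0.01 without R&Zdel 7M replicate 4. None was called at any of these times, where 0.436%, 0.226% and 0.451% of all genes were, and the other tools run called 0 of the 7 as well. At an unadjusted p under 0.05 none of the 7 passed at 1M, Sqle and Cyp51 passed at 3M, and Fdps and Lss passed at 7M, where 7.74%, 6.43% and 8.89% of all genes did. The differences between time points called 0 of the 7 and 0 of all 12848 genes, so 0% of them, by edgeR's quasi-likelihood test. DESeq2 also called 0 of the 7, and at an unadjusted p under 0.05 only Sqle and Cyp51 passed, both between 7M and 3M, where 4.18% of all genes did.

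At 3M the highest values were those of a single library. Cyp51 stood at 414 CPM in the batch 1 R&Zdel liver, against 187 and 252 CPM in R&Zflox livers of that batch. In batch 2 it stood at 242 CPM in the R&Zdel liver and at 70.0, 89.7 and 157 CPM in the R&Zflox livers, so both R&Zdel livers were above all controls of their batch. Its log2 fold change was 1.10 ± 0.36 (edgeR adjusted p = 0.407). Sqle, the squalene epoxidase and a control point of the pathway, stood at 234 against 99.95 and 148 CPM in batch 1 and at 129 against 72.8, 74.4 and 114 CPM in batch 2, with a log2 fold change of 0.93 ± 0.36 (edgeR adjusted p = 0.61). The batch 1 R&Zdel liver is replicate 4, the library with conflicting labels, and it held the highest level of all 18 grouped batch 1 libraries for 5 of the 7 genes, all but Hmgcs1 and Fdps. The median of the 7 log2 fold changes at 3M was 1.32 in batch 1 alone and 0.37 in batch 2 alone. When 1 of the 3M libraries was left out, the log2 fold change lay between 0.91 and 1.33 for Cyp51 and between 0.55 and 1.35 for Sqle.

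At 7M the difference was largest for Fdps and Lss. In batch 2, Fdps lay at 28.5, 40.6 and 47.1 CPM in the R&Zdel and at 20.8, 22.8 and 23.1 CPM in the R&Zflox livers, which did not overlap. In batch 1 it lay at 472 and 656 against 180 and 378 CPM, again apart. Its log2 fold change was 0.86 ± 0.29 (edgeR adjusted p = 0.338). Lss, at 74.3, 126 and 158 against 61.3, 66.9 and 75.7 CPM in batch 2, overlapped, with a log2 fold change of 0.74 ± 0.27 (edgeR adjusted p = 0.37). When 1 of the 7M libraries was left out, the log2 fold change lay between 0.76 and 0.99 for Fdps and between 0.56 and 0.87 for Lss. Srebf2, Hmgcs1, Sqle and Cyp51 had log2 fold changes between -0.13 and 0.38 at 7M.

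Zonation markers moved with genotype in the same undamaged livers. The 5 pericentral markers summed to 22748 to 30030 CPM in R&Zdel and to 9451 to 14879 CPM in R&Zflox livers of batch 2, and to 25849 to 38363 CPM against 10303 to 13165 CPM in batch 1. The 5 periportal markers summed to 833 to 1897 CPM against 3190 to 5239 CPM in batch 2, again without overlap. The 7 hepatocyte markers summed to 55329 to 78413 CPM against 111970 to 130290 CPM at 1M, and overlapped at 7M in batch 2. None of these markers was at 0 in an undamaged library, and their part in the levels of the 7 genes and of the rest of the pathway was not tested.

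**Figure D1:**
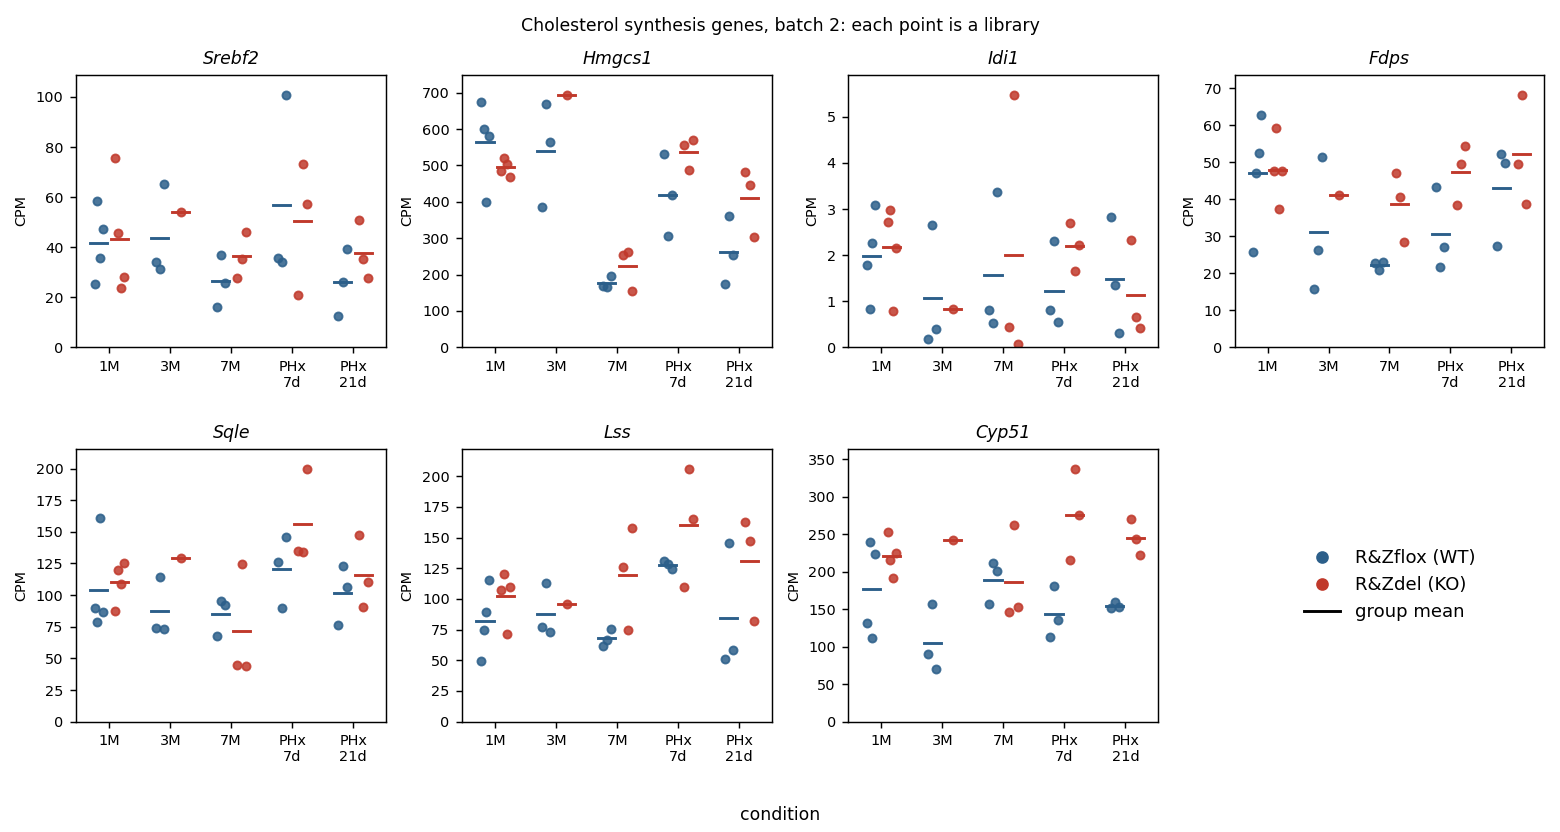
CPM of each library (points) and group means (bars) of the 7 genes in batch 2, for R&Zflox (blue) and R&Zdel (red) livers at 1M, 3M, 7M and after PHx; each vertical axis starts at 0. The genotypes overlap in most places, while all R&Zdel points of Cyp51 lie above the R&Zflox points at both PHx times. Neither of these differences was called, and the share of all genes so apart was not counted.

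The rest of the pathway leaned the same way in undamaged livers. Of 6 other mevalonate and squalene enzymes, 6 had a positive mean log2 fold change over 1M, 3M and 7M, with a median of 0.89, and 2 were called higher. These were Mvk, the mevalonate kinase (1.03 ± 0.22, edgeR adjusted p = 0.0102), and Mvd, the mevalonate decarboxylase (1.14 ± 0.23, edgeR adjusted p = 0.00742), and 0.677% of all genes were called higher. The count did not change without the libraries with conflicting labels. The call of 2 rested on few livers: without the R&Zdel 3M liver of batch 2, or in male mice alone, 0 of the 6 were called. Of 9 other post-squalene enzymes 7 were positive with a median of 0.16 and none was called. Tm7sf2, a sterol reductase, had a log2 fold change of 0.92 ± 0.19 and was the list's largest. Neither of the lists for SREBP processing and for uptake and trafficking had a called member, and their medians were 0.21 and 0.16. The other tools run also called 0 in those 3 lists, while batch 2 alone called 1 post-squalene enzyme. By the looser rule 4 of 9, 2 of 8 and 1 of 11 members of these lists were higher, where 6.06% of all genes were.

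Chronic damage separated the genotypes. At 4 days of recovery from CCl4, 6 of the 7 genes had a negative log2 fold change of R&Zdel over R&Zflox, with a median of -0.72 against 0.06 over all 11358 genes tested, and of -0.42 without R&Zflox replicate 2. In 6 of 7 genes, all but Lss, both R&Zdel livers were below both R&Zflox livers in TMM-scaled CPM, as 35.2% of all genes were. Srebf2 was among them only narrowly, at 31.5 against 32.3 CPM where closest, and its log2 fold change was 0.02. That set rests on the TMM scaling. By unadjusted totals, Srebf2 held 1110 and 1395 counts of 26436752 and 29291400 in the R&Zdel livers. In the R&Zflox livers it held 892 and 911 of 29125968 and 28729881, a smaller share. Hmgcs1 and Fdps were called lower, 2 of 7, where 4.95% of all genes were called lower and 15.2% were called in either direction. These calls use the same scaling. Of those totals, Fdps held 6388 and 7888 counts in R&Zdel and 11736 and 14001 in R&Zflox livers. Hmgcs1 held 5734 and 6791 against 11270 and 13130. Both shares were smaller in R&Zdel livers, and neither reached the fold threshold. Lss held 2654 and 2702 against 1678 and 2449, a larger share. The 6 other fits also called 2, but none used unadjusted totals.

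**Figure D2:**
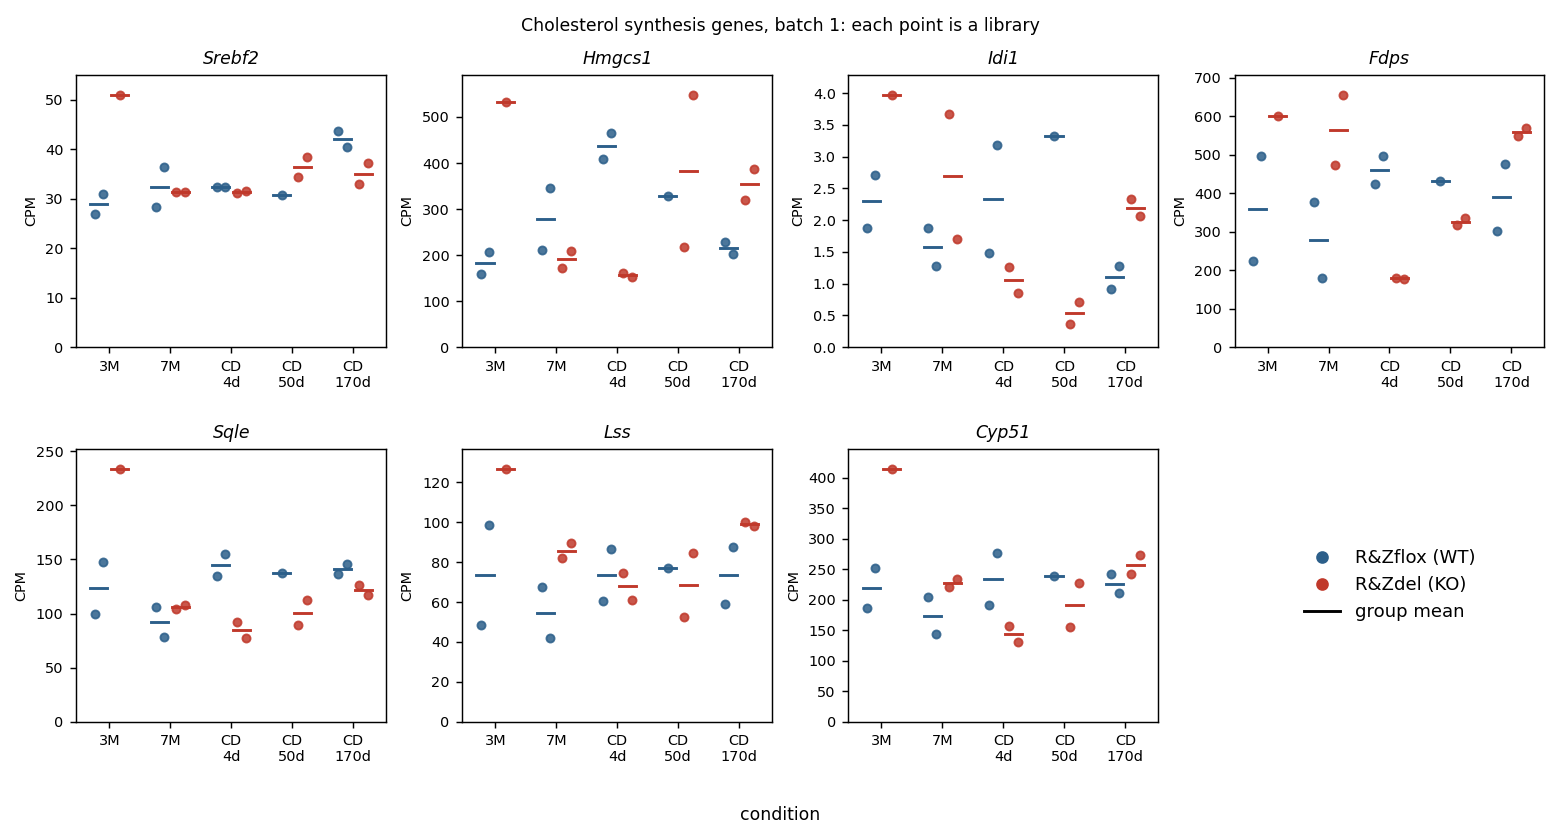
CPM of each library (points) and group means (bars) of the 7 genes in batch 1, for R&Zflox (blue) and R&Zdel (red) livers undamaged at 3M and 7M and at 4, 50 and 170 days after CD; each vertical axis starts at 0. At CD 4d the R&Zdel points of Fdps, at 178 and 180 CPM, lie below the R&Zflox points at 425 and 496 CPM, and the highest undamaged point in most panels is the single R&Zdel 3M library.

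Fdps stood at 178 and 180 CPM in the R&Zdel livers and at 425 and 496 CPM in the R&Zflox livers at 4 days. The groups were far apart, and the log2 fold change was -1.31 ± 0.23 (edgeR adjusted p = 0.0081). It stayed called when any of the 4 livers was left out. Hmgcs1 stood at 154 and 162 CPM against 408 and 465 CPM, with a log2 fold change of -1.41 ± 0.36 (edgeR adjusted p = 0.0284). Its fold change stayed between -1.51 and -1.31 when a liver was left out, but its adjusted p in edgeR rose to 0.142 without R&Zdel replicate 2, to 0.104 without R&Zflox replicate 1 and to 0.117 without R&Zflox replicate 2, so 1 of the 7 genes was then called. Sqle stood at 77.8 and 91.8 CPM against 134 and 155 CPM (log2 fold change -0.72 ± 0.18, edgeR adjusted p = 0.0287), past the p threshold and short of the fold threshold. Cyp51 stood at 131 and 157 CPM against 192 and 277 CPM (-0.64 ± 0.25, edgeR adjusted p = 0.105). Idi1, the isomerase that supplies dimethylallyl diphosphate, had 0.859 and 1.27 CPM against 1.48 and 3.19 CPM, on 38 to 90 counts (-1.08 ± 0.49, edgeR adjusted p = 0.146).

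Srebf2 and Lss did not share this difference. Srebf2 stood at 31.3 and 31.5 CPM in the R&Zdel and at 32.3 and 32.3 CPM in the R&Zflox livers, with a log2 fold change of 0.02 ± 0.15. Lss stood at 61.1 and 74.8 CPM against 60.7 and 86.8 CPM, with a log2 fold change of -0.06 ± 0.28. For Lss the genotypes overlapped, and for Srebf2 the difference was within its error.

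**Figure D3:**
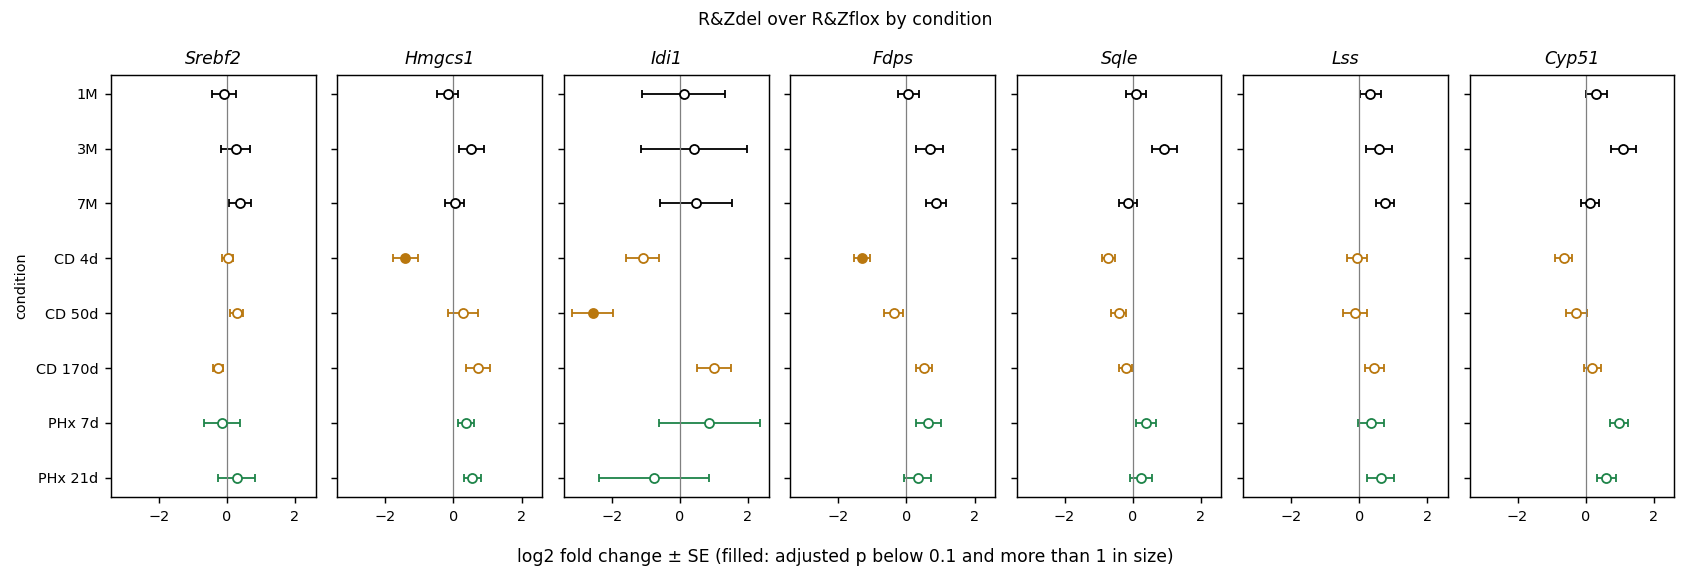
Log2 fold change of R&Zdel over R&Zflox (horizontal axis, ± SE) for the 7 genes (panels) in each condition (rows; undamaged black, CD brown, PHx green); filled points passed an adjusted p of 0.1 and a log2 fold change of 1. The filled points are Hmgcs1 and Fdps at CD 4d, at -1.41 and -1.31, and Idi1 at CD 50d, at -2.56.

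Several marker sets separated the genotypes in this comparison, while pericentral, macrophage, stellate and lymphocyte markers overlapped. Pericentral markers summed to 1963 and 3124 CPM in R&Zdel and to 2209 and 3101 CPM in R&Zflox livers. In undamaged livers of batch 1 they summed to 25849 to 38363 and to 10303 to 13165 CPM. The summed level of 5 of 5 cholangiocyte markers was 2704 and 4286 CPM in the R&Zdel livers at CD 4d against 93.9 and 164 CPM in the R&Zflox livers, and that of 5 of 5 proliferation markers was 103 and 109 CPM against 23.4 and 51.3 CPM. The 7 of 7 hepatocyte markers summed to 49413 and 68005 CPM in R&Zdel and to 97709 and 98010 CPM in R&Zflox livers, and 5 of 5 periportal markers to 478 and 506 CPM against 4391 and 5279 CPM. The 5 of 5 endothelial markers summed to 66.2 and 125 CPM against 219 and 225 CPM. None of these markers was at 0 in a CD library. Hepatocyte markers were also lower in undamaged R&Zdel livers of batch 1, at 67485 to 68215 CPM against 86833 to 127990 CPM. The part of these cells in the lower levels of Fdps and Hmgcs1, and in the responses to damage given below, was not tested.

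The rest of the pathway leaned lower as well at CD 4d, by the same TMM-scaled fit. All calls in the lists were lower, where 4.95% of all genes were called lower and 15.2% in either direction. A single call in a list of 8 or 11 genes is near those shares. Of the 6 other mevalonate and squalene enzymes 5 were lower, with a median of -0.55, and 1 was called, Pmvk (phosphomevalonate kinase), at 78.4 and 87.6 CPM against 194 and 202 CPM (-1.20 ± 0.25, edgeR adjusted p = 0.0143). Of the 9 post-squalene enzymes 8 were lower, with a median of -0.70, and 3 were called. These were the sterol reductase Tm7sf2 (-1.12 ± 0.20), the isomerase Ebp (-1.16 ± 0.19) and the desaturase Sc5d (-1.32 ± 0.42). Scap, the escort of SREBP2, was the 1 called of 8 genes of SREBP processing (-1.12 ± 0.20, edgeR adjusted p = 0.00875), and Soat2, which esterifies cholesterol, the 1 called of 11 genes of uptake and trafficking (-1.36 ± 0.25, edgeR adjusted p = 0.00841). Mvk and Mvd, higher in undamaged R&Zdel livers, were not called at CD 4d.

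**Figure D4:**
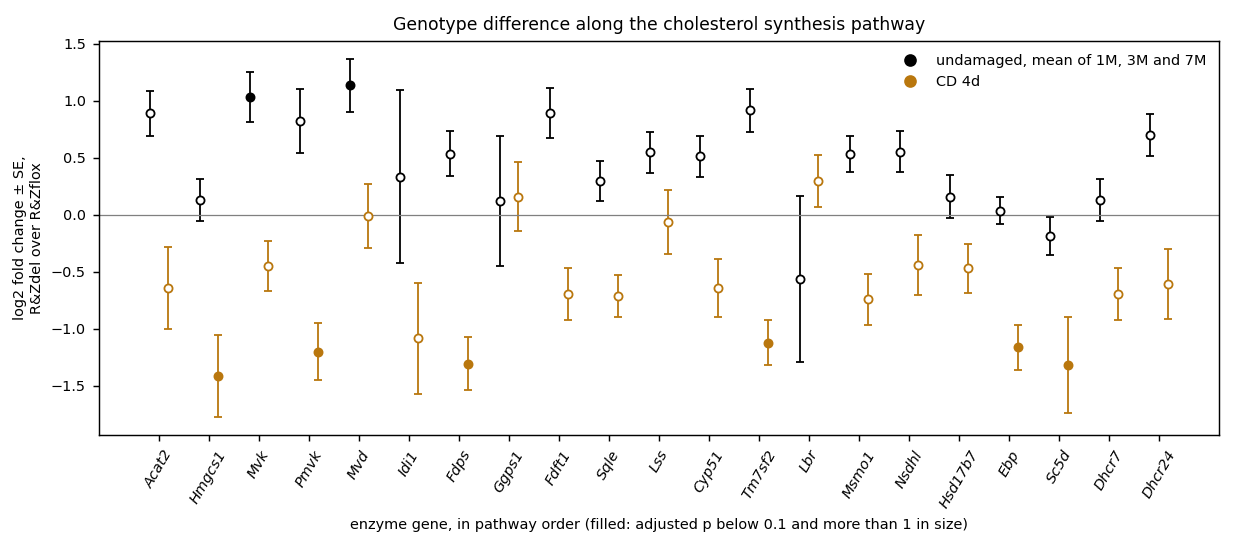
Log2 fold change of R&Zdel over R&Zflox (± SE) of the cholesterol synthesis enzymes in pathway order, in undamaged livers (black, mean of 1M, 3M and 7M) and at CD 4d (brown); filled points passed an adjusted p of 0.1 and a log2 fold change of 1. Most black points lie above 0 and most brown points below it, with Fdps at 0.54 and -1.31.

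Set against undamaged livers of the same batch, the signs of the log2 fold changes at CD 4d were opposite in the 2 genotypes, in TMM-scaled fits. The undamaged livers are 3M and 7M livers pooled, whereas by the paper's timeline CD 4d fell earlier after deletion. Time since deletion therefore differs between damaged and undamaged mice, and its part cannot be told apart from that of damage. The same holds for the later comparisons of CD with undamaged livers. In R&Zflox livers all 7 genes had a positive log2 fold change over the undamaged level, with a median of 0.28 that was 0.56 without CD 4d replicate 1 and 0.17 without both libraries with conflicting labels, and Hmgcs1 was called higher, 1 of 7, where 3.39% of all 12608 genes were and 5.37% were called in either direction. It stood at 408 and 465 CPM after damage and at 160, 206, 211 and 345 CPM without, with no overlap (1.26 ± 0.28, edgeR adjusted p = 0.0224). Without R&Zflox CD 4d replicate 2 its adjusted p in edgeR was 0.247, and against the 7M livers alone it was 0.323, so none of the 7 was then called. The other 6 log2 fold changes lay between 0.19 and 0.48.

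In R&Zdel livers all 7 genes had a negative log2 fold change at CD 4d, with a median of -0.64. The median was -0.33 without both libraries with conflicting labels, which takes the R&Zdel 3M liver out of the undamaged group, and -0.92 without R&Zdel 7M replicate 1. Both damaged livers were below all 3 undamaged ones for 6 of the 7 genes in TMM-scaled CPM, as for 29.2% of all genes. That set rests on the TMM scaling. By unadjusted totals, Hmgcs1 held 5734 and 6791 counts of 26436752 and 29291400 after damage. In undamaged livers it held 3380, 4549 and 15694 of 22255197, 22692546 and 29893568, where the first 2 are smaller shares. Idi1, Sqle, Lss and Cyp51 also overlapped by such shares, while Fdps stayed below. No fit used unadjusted totals. Of the 7, 2 were called lower, where 9.95% of all genes were and 31.3% were called in either direction. Fdps stood at 178 and 180 CPM after damage and at 472, 600 and 656 CPM without (-1.86 ± 0.36, edgeR adjusted p = 0.00146), and stayed called in every fit that left out 1 library. Idi1 stood at 0.859 and 1.27 CPM against 1.71, 3.67 and 3.97 CPM (-1.57 ± 0.53, edgeR adjusted p = 0.0283), and lost its call without R&Zdel 7M replicate 1 (edgeR adjusted p = 0.122) or CD 4d replicate 2 (edgeR adjusted p = 0.178). Cyp51 had a log2 fold change of -0.92 ± 0.33 (edgeR adjusted p = 0.0344), short of the fold threshold. Without R&Zdel 7M replicate 1, 7M replicate 2 or CD 4d replicate 1 it passed, at -1.16, -1.10 and -1.04, while without both libraries with conflicting labels it was -0.65, and without CD 4d replicate 2 it was -0.77 (edgeR adjusted p = 0.19). Hmgcs1, at 154 and 162 CPM against 172, 210 and 533 CPM, had a log2 fold change of -0.39 ± 0.32.

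The difference between these responses was itself tested by the same TMM-scaled fit, as the response of R&Zdel livers minus that of R&Zflox livers. It was negative for all 7 genes, with a median log2 difference of -1.20 against 0.10 over all genes, and 5 of 7 were called, where 6.77% of all genes were called lower and 17.7% in either direction. Fdps differed most, by -2.31 ± 0.45 (edgeR adjusted p = 0.0086). Idi1 followed at -1.84 ± 0.67 (edgeR adjusted p = 0.0769), Hmgcs1 at -1.65 ± 0.42 (edgeR adjusted p = 0.0217), Cyp51 at -1.20 ± 0.41 (edgeR adjusted p = 0.0641) and Sqle at -1.12 ± 0.44 (edgeR adjusted p = 0.0927). Lss, at -0.77 ± 0.48, and Srebf2, at -0.27 ± 0.19, were not called.

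**Figure D5:**
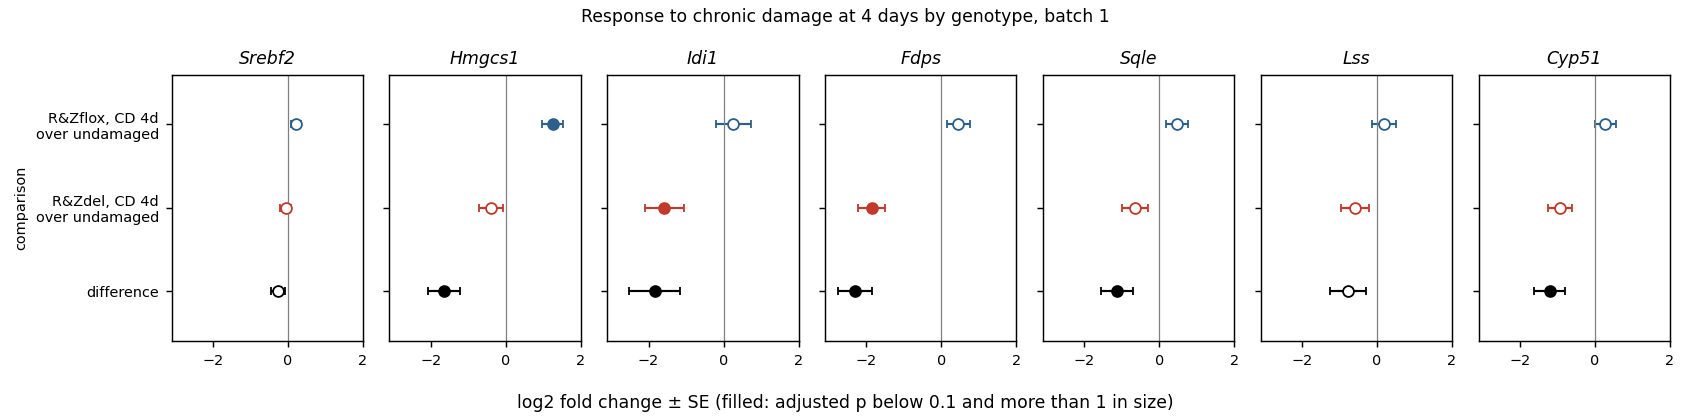
Log2 fold change (± SE) of CD 4d over undamaged livers of batch 1 in R&Zflox (blue) and R&Zdel (red) livers, and the difference between those responses (black), for the 7 genes; filled points passed an adjusted p of 0.1 and a log2 change of 1. Blue points lie above 0, red points below it, and the black point of Fdps is lowest, at -2.31.

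That count of 5 rested on the undamaged livers used. Without both libraries with conflicting labels, 2 of the 7 remained past the threshold, Hmgcs1 and Fdps, and the median difference was -0.78. Those libraries are the only females of the fit, so that with a sex term leaving out either of them gave the same count of 2. Against the 7M livers alone only Fdps was called, at -1.94 (edgeR adjusted p = 0.0809), and the median was -0.85. The count was also 2 without R&Zdel CD 4d replicate 1, R&Zdel CD 4d replicate 2 or R&Zflox CD 4d replicate 2, and 3 without R&Zflox 7M replicate 1 or R&Zflox 3M replicate 2 of batch 1. Fdps was called in every one of these fits, with differences between -2.57 and -1.94.

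The lists followed the same contrast, in which 6.77% of all genes were called lower and 17.7% in either direction. Of the other mevalonate and squalene enzymes 4 of 6 were called lower in this difference, led by Acat2, the thiolase at the head of the pathway, at -1.92 ± 0.62, and of the post-squalene enzymes 7 of 9, led by Tm7sf2 at -1.93 ± 0.31. One of 8 genes of SREBP processing was called, Scap (-1.10 ± 0.28), and 2 of 11 of uptake and trafficking, Scarb1, the HDL receptor (-1.18 ± 0.28), and Soat2 (-1.86 ± 0.34). Without both libraries with conflicting labels these counts were 2, 5, 0 and 2, and against the 7M livers alone 0, 1, 0 and 0.

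At 50 days only Idi1 passed the threshold between the genotypes, with a single R&Zflox library. It stood at 0.361 and 0.709 CPM in the R&Zdel livers, which are 8 and 21 counts, and at 3.33 CPM in the R&Zflox liver (-2.56 ± 0.60, edgeR adjusted p = 0.068). It was the 1 of 7 called, where 2.94% of all genes were called lower and 5.58% in either direction, and without R&Zdel replicate 1 it was lost (edgeR adjusted p = 0.193). The lone control is assumed to vary like the other groups. Hmgcs1 stood at 218 and 548 CPM against 328 CPM, and Fdps at 317 and 335 CPM against 432 CPM. The R&Zdel livers thus lay on both sides of the control for Hmgcs1 and below it for Fdps, whose log2 fold change was -0.37. The remaining 4 genes had log2 fold changes between -0.41 and 0.28. In the lists, Msmo1, a sterol oxidase (-1.07 ± 0.26), and Srebf1, the gene of the lipogenic SREBP1 (-1.66 ± 0.33), were called lower.

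Against undamaged R&Zdel livers, Idi1 was the 1 of 7 called at 50 days (-2.53 ± 0.57, edgeR adjusted p = 0.0103), where 5.31% of all genes were called lower and 18% in either direction. Fdps and Hmgcs1 were near the fold threshold on opposite sides, at -0.99 ± 0.35 (edgeR adjusted p = 0.0539) and 0.89 ± 0.32 (edgeR adjusted p = 0.0541). For Hmgcs1 that value rested on 1 liver, at 548 CPM against 218 CPM in the other: it was 0.12 without replicate 2 and 1.41 without replicate 1. Summed cholangiocyte markers were still at 607 and 915 CPM in these R&Zdel livers, against 112 CPM in the control, and their part in the result was not tested.

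At 170 days the genotypes no longer differed by the test. None of the 7 genes was called, where 0.625% of all genes were, DESeq2 and the likelihood ratio test called 0 as well, and at an unadjusted p under 0.05 only Fdps passed, where 9.26% of all genes did. The R&Zdel livers were above both R&Zflox livers for 5 genes and below for 2, where 19.2% and 18.6% of all genes were. Fdps stood at 550 and 569 CPM against 303 and 476 CPM (0.52 ± 0.23, edgeR adjusted p = 0.531). Hmgcs1 stood at 319 and 388 CPM against 202 and 228 CPM (0.71 ± 0.36). Srebf2, at 33.0 and 37.3 CPM against 40.4 and 43.6 CPM, and Sqle, at 117 and 126 CPM against 137 and 145 CPM, were the 2 genes with lower R&Zdel levels. Against undamaged livers none of the 7 was called in either genotype by edgeR's quasi-likelihood test, DESeq2 or the likelihood ratio test, where 0.00793% of all genes were called in R&Zflox and 0% in R&Zdel livers. At an unadjusted p under 0.05, Srebf2 in R&Zflox (0.59 ± 0.13) and Hmgcs1 in R&Zdel livers (0.77 ± 0.32) passed, where 8% and 8.78% of all genes did. The difference of the responses called 0 of the 7 by the same tools, and 0% of all genes, with a median of -0.32, and at an unadjusted p under 0.05 only Srebf2 passed, at -0.49, where 7.53% of all genes did. Without both libraries with conflicting labels that median was 0.10.

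After partial hepatectomy the genes leaned higher in R&Zdel livers, and none passed the threshold. Cyp51 is given first, as the 1 of 7 genes that passed an unadjusted p under 0.05 in edgeR at each time. Its livers also did not overlap between genotypes at each time. The share of all genes so apart after PHx was not counted, so no weight is put on that separation. At 7 days Cyp51 lay at 215, 275 and 337 CPM in the R&Zdel and at 113, 136 and 181 CPM in the R&Zflox livers, which did not overlap (0.97 ± 0.26, edgeR adjusted p = 0.213). At 21 days it lay at 222, 244 and 271 CPM against 152, 152 and 159 CPM, again apart (0.61 ± 0.27, edgeR adjusted p = 0.562). Neither difference passed the threshold over all genes. The R&Zdel liver at 271 CPM is female and the R&Zflox livers at 21 days are male, and the fit carries a sex term. That female liver also held the highest Hmgcs1 level at 21 days. When 1 liver at 21 days was left out, the log2 fold change of Cyp51 stayed between 0.57 and 0.66. At both times 6 of the 7 log2 fold changes were positive, with medians of 0.39 and 0.33 that were 0.59 without R&Zflox replicate 1 at 7 days and 0.09 without R&Zflox replicate 1 at 21 days, and 0 of 7 were called, where 0.274% and 0.329% of all genes were. DESeq2 and the likelihood ratio test also called 0, and at an unadjusted p under 0.05 Cyp51 passed at 7 days and Cyp51 and Hmgcs1 at 21 days, where 5.93% and 8.67% of all genes did. Hmgcs1 lay at 304, 447 and 483 CPM against 173, 255 and 362 CPM at 21 days, which overlapped (0.56 ± 0.25, edgeR adjusted p = 0.562).

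The remaining genes overlapped between genotypes after hepatectomy. Fdps lay at 38.5, 49.6 and 54.3 CPM against 21.8, 27 and 43.3 CPM at 7 days (0.65 ± 0.37), and Sqle at 134, 135 and 200 CPM against 90.0, 126 and 146 CPM (0.39). Srebf2 lay at 20.8, 57.1 and 73.3 CPM against 34.0, 35.6 and 101 CPM, with a log2 fold change of -0.15. In the lists, Acat2 was the 1 called of 6 mevalonate and squalene enzymes at 7 days (1.06 ± 0.23, edgeR adjusted p = 0.0657). Nr1h2, the gene of a sterol-sensing nuclear receptor, was the 1 called of 8 genes of SREBP processing at 21 days (1.98 ± 0.38, edgeR adjusted p = 0.0189). Of all genes, 0.274% and 0.329% were called at these times.

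Markers separated the genotypes after hepatectomy too. At 7 days the hepatocyte markers summed to 59451 to 86018 CPM in R&Zdel and to 123670 to 150770 CPM in R&Zflox livers, the pericentral markers to 14411 to 18556 CPM against 3714 to 8971 CPM, the periportal markers to 980 to 1890 CPM against 3747 to 5196 CPM, and the 5 stellate and fibroblast markers to 54.3 to 59.4 CPM against 147 to 210 CPM. At 21 days the hepatocyte and pericentral markers were apart as well, at 56478 to 97727 CPM against 111070 to 135170 CPM and at 22710 to 26133 CPM against 12070 to 13527 CPM. The periportal markers were also apart then, at 891 to 1119 CPM against 3878 to 5029 CPM. Their part in the levels of Cyp51 and the other genes was not tested.

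Compared with undamaged 1M livers, hepatectomy gave no called change among the 7 genes in either genotype or in the difference between genotypes. The shares of all genes called were 0.0235% and 0.0157% at 7 days in R&Zflox and R&Zdel livers, and 0% at 21 days and in both differences. DESeq2 and the likelihood ratio test called 0 of the 7 too, and at an unadjusted p under 0.05 only Hmgcs1 at 21 days passed, in R&Zflox livers (-0.96 ± 0.25, edgeR adjusted p = 0.492) and in the difference (0.73, edgeR adjusted p = 0.84), where 6.93% and 5.76% of all genes did. It lay at 399, 580, 599 and 676 CPM in undamaged 1M R&Zflox livers and at 173, 255 and 362 CPM at 21 days, so that no liver overlapped, while R&Zdel livers lay at 467 to 522 CPM and at 304 to 483 CPM.

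The 7 genes varied together more in batch 1 than in batch 2, as a description over libraries that share batch, depth and group. Of 21 pairs of genes 21 had a positive Pearson correlation of log2 CPM over the 23 libraries of batch 1, with a median of 0.60, and the closest pair was Sqle and Cyp51 at 0.88. Over the 30 libraries of batch 2, 20 of 21 pairs were positive with a median of 0.33. The genes whose log2 CPM was most like the mean of the 7 over those 30 libraries, of 8501 candidates, were Ndrg1 (0.75), Crlf3 (0.70), Fdft1, the squalene synthase (0.66), Clk3, Slc1a4, Coq8a, Rae1, Flt3l, Gstm4 and Pgd (0.61). One of these 10, Fdft1, is an enzyme of cholesterol synthesis.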

How the data were processed

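Whole-liver RNA was made into Smart-Seq2 libraries and read as single reads of 50 bases. The deposited values are raw read counts per gene: per the submitters' processing notes the authors trimmed reads with Trim Galore (the methods name Sickle), aligned them with STAR 2.5.0a and counted exons without strand with featureCounts 1.5.0-p3 (batch 1, mm10 RefSeq genes in the file headers) and 1.5.0-p1 (batch 2). Lss and Fdps overlap another gene and Srebf2 hosts Mir33, and such reads cannot be told apart without strand. Of 55 samples listed, 53 had counts, and 5 libraries whose labels conflict on the group were given none.

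Genes over 1 CPM in at least 3 libraries (6 for chronic damage) were tested with edgeR 4.0.16 (TMM scaling, quasi-likelihood test, R 4.3.3) with batch and sex terms where they vary, two-sided, with Benjamini-Hochberg adjustment. The undamaged, CD, PHx and batch 1 damage fits held 25, 11, 20 and 18 libraries. DESeq2 1.42.0, other scaling, filters and left-out libraries were tried as alternatives. The test was checked on simulated data. Errors of log2 fold changes are SEs. The p-values measure the spread between these libraries only. CPM are counts scaled to the library total of shared symbols after TMM adjustment within each batch. Unadjusted totals over all symbols ran from 11721687 to 38692089. Counting error is small beside the spread except for Idi1. Members and lists were chosen with earlier results of these data known. The members were named in full, and other genes of a list only where called or the list's largest by the looser rule. No pair of libraries was identical.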

Additional observations from a re-analysis of the deposited data

Results flagged for a closer look

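Sqle in the undamaged 1M R&Zflox livers held 1 library far from the others, at 161 CPM against 78.6, 86.5 and 90.0 CPM. It was the only one of 14 sets of values tested, each a gene in a group of 4 libraries, to do so, and chance alone marks about 1 set in 20.

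The response to chronic damage at 4 days differed between the genotypes for 5 genes, as R&Zdel minus R&Zflox on the log2 scale: Hmgcs1 by -1.65, Idi1 by -1.84, Fdps by -2.31, Sqle by -1.12 and Cyp51 by -1.20. Without both libraries with conflicting labels the difference held for Hmgcs1 and Fdps. All these values come from TMM-scaled fits. Time since deletion also differed between damaged and undamaged mice, and cannot be told apart from damage.

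Of the 5 batch 1 libraries that the labels place in no group, 3 had a mean level of the 7 genes above all undamaged R&Zflox livers of that batch. As a mean log2 difference from the batch mean, these were 0.35, 0.24 and 0.76, and the highest undamaged R&Zflox liver was at 0.11.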

How the results depend on the processing

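The number of the 7 genes called was recomputed in 73 fits that left out a library and 35 other fits, and no direction of a called gene reversed. It was 0 in every alternative for the undamaged, PHx and CD 170d comparisons. Leaving out 1 library gave 1 to 2 at CD 4d, 0 to 1 at CD 50d, 0 to 1 for R&Zflox CD 4d against undamaged, 1 to 3 for R&Zdel CD 4d, 1 to 2 for R&Zdel CD 50d and 2 to 5 for the difference of the 4-day responses. With the compared groups alone, CD 50d gave 0, since Idi1 did not pass the filter. Against 7M livers alone, R&Zflox CD 4d gave 0 and the difference of responses 1. Without both libraries with conflicting labels, an alternative chosen after seeing the data, that difference gave 2. R&Zdel CD 50d against undamaged gave 2 under DESeq2 size factors, without a filter, by DESeq2's Wald test, against 7M livers alone and without those libraries. No fit was possible without the single R&Zflox CD 50d library.

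With the replicate number as a block, the counts stayed at 2 at CD 4d, 1 at CD 50d and 0 at CD 170d, in undamaged livers and after PHx, and the called mevalonate enzymes in undamaged livers fell from 2 to 1. Same-numbered libraries did not deviate together throughout (correlations of -0.373 to 0.313 over 17 pairs), and the numbers were not taken as pairs. Both same-numbered pairs stood at 0.313 at CD 4d and at -0.373 at CD 170d. With 2 libraries per group the deviations mirror each other, so these values cannot decide on pairing there.

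The number of all genes called moved more. DESeq2 called 302 at 1M (56 in edgeR), 134 at 3M (29), 369 for the mean over times (154), 84, 105 and 32 for the time differences (0), 197, 193, 338 and 175 for PHx against 1M (3, 2, 0 and 0) and 161 and 263 for the PHx differences (0). Without a filter there were 95 at 7M (58), 2956 at CD 4d (1729), 1671 at CD 50d (634), 600 at CD 170d (71), 1269 for R&Zflox CD 4d (677), and 572, 535 and 456 for the 170-day responses and their difference (1, 0 and 0). An unadjusted p gave 510 and 838 after PHx (35 and 42). The fewest were 14 at 1M in males, 0 at 3M and at CD 170d and 10 and 19 after PHx with compared groups alone, 14 at 7M in batch 1, and 263 for R&Zflox CD 4d and 208 for the difference of responses (2231) against 7M livers alone. The cause was not tested. Idi1 is limited by depth.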

Other observations

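The other 2 libraries that the labels place in no group had mean levels of the 7 genes of 0.06 and -0.08, on the same scale of log2 difference from the batch mean. The R&Zdel 3M library with conflicting labels was at 0.75.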
